A study of Mus musculus with 6 samples.

Results

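The 9 photoreceptor transcription factors described here are Crx, Otx2, Neurod1, Mef2d, Samd7, Thrb, Rxrg, Pias3 and Sall3. They were chosen by gene symbol, with earlier results of these data known. Of the 9 factors, 8 are among the 9720 protein-coding genes of the deposited table, and Samd7 was not analysed here. RNA came from cones of adult mice of C57BL/6 with mixed background, aged 60 to 80 days by one part of the label and 2 to 6 months by another, and kept on a cycle of 12 h light and 12 h dark. Cones were collected by FACS as eGFP+ cells from dissociated neural retinas. The 3 control libraries carry the genotype HRGPcre;Bmal1f/+;Z/EG and the 3 knockout libraries HRGPcre;Bmal1f/f;Z/EG. Both groups therefore share the cone-directed Cre transgene HRGPcre, the Z/EG reporter, which turns on eGFP after Cre has acted, and at least 1 floxed Bmal1 allele, so the controls can lose 1 copy in cones although the series text calls them wild type. Values are FPKM, fragments per kilobase of a transcript after correction for the size of a library, so levels can be compared between genes per length. The labels do not say how many animals gave a library, and the spread that the p-values rest on may be technical in part.

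Photoreceptors are specified and maintained by a small network of transcription factors. OTX2 sets the photoreceptor fate and switches on Crx, and the CRX homeodomain protein then drives most genes of the light response together with cofactors such as MEF2D and NEUROD1. In cones, thyroid hormone receptor beta, its partner RXR gamma, the SUMO ligase PIAS3 and the zinc finger protein SALL3 are known for the choice between the short- and medium-wavelength opsins. BMAL1, the clock protein removed in the knockout, binds DNA with CLOCK at the E-box CACGTG.

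Because BMAL1 binds E-boxes, and CRX and OTX2 bind a core of TAATCC, the promoters of the members were searched for both strings on both strands. RefSeq (GRCm38.p6) gave 13 windows of 300 bases, from 250 before to 50 after a start, for 7 members, and none was found for Sall3. The E-box was in 1 of the 13 windows and in 7.15% of all 32817 windows. The TAATCC core, read as GGATTA on the other strand, was in 3 windows, of Crx, Otx2 and Thrb, and in 7.06% of all windows. The 4 windows with a match are shown 5′ to 3′ over the 250 bases before the start, with the matches in capitals. They lie at chr7:15879956-15880205 (minus strand) for Crx, chr14:48665110-48665359 (minus strand) for 1 of the 4 Otx2 starts, and chr14:17660710-17660959 and chr14:17981394-17981643 (plus strand) for the 2 Thrb starts.
Crx: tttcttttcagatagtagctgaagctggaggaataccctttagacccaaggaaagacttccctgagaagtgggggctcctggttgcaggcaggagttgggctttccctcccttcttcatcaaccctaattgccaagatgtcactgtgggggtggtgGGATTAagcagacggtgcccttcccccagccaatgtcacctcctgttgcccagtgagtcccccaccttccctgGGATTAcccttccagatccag
Otx2: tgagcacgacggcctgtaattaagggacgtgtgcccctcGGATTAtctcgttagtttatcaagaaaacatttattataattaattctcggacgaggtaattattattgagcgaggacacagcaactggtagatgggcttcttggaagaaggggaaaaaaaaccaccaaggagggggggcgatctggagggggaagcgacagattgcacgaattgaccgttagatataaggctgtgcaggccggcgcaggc
Thrb upstream start: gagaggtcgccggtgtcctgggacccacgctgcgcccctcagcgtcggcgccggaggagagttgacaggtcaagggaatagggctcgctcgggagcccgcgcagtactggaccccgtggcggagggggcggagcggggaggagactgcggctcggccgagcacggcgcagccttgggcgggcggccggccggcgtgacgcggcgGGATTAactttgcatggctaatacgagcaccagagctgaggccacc
Thrb downstream start: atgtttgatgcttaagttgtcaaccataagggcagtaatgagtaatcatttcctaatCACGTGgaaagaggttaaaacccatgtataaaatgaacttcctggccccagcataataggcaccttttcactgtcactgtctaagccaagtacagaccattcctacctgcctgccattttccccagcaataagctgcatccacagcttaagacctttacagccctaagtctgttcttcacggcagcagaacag
The Crx window holds the core at 94 and 21 bases before the start, and the Otx2 window at 211 bases. The upstream Thrb start has the core at 46 bases before it. The downstream Thrb start has the E-box at 193 bases before it. A match is a string of letters and not a binding site. The window of Nr1d1, the clock gene used below to check the genotype, holds neither string.

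Among the fixed markers, all 13 cone genes were in the table, with a summed level of 4650 to 7735 FPKM in control and 6452 to 7521 FPKM in knockout libraries. All 16 rod genes were there too, at 2956 to 3628 and 2477 to 3558 FPKM, so RNA of rods was present in both groups. Rods also express Crx, Otx2, Neurod1 and Mef2d, and the rod share in their levels was not tested. Bipolar cells express Otx2 and horizontal cells Sall3. Of the bipolar markers, 8 of 11 were in the table, with sums of 49.4 to 72.4 FPKM in control and 55.7 to 59.9 FPKM in knockout. The largest part was Lrtm1, with means of 28.3 FPKM in control and 32.1 FPKM in knockout. The defining horizontal cell genes Lhx1 and Onecut1 were not analysed here. Of the horizontal cell markers, 2 of 6 were there, with sums of 14.6 to 22.1 FPKM in control and 13.6 to 20.2 FPKM in knockout. Most of this was Sept4, while Prox1 averaged 1.42 FPKM in control and 0.88 FPKM in knockout. In such a mixture, fewer cells of a type and less RNA per cell cannot be told apart. FPKM sums ran from 84995 FPKM in control 1 to 128773 in control 3, where 10.03% of it belonged to the gene model Gm17364. The depth in reads is unknown. Arntl, the gene of BMAL1, gave 2.9998, 2.60 and 3.27 FPKM in the control libraries and 3.37, 2.28 and 3.48 FPKM in the knockout libraries, a whole-gene value that does not check the deletion. Nr1d1, a direct clock target, gave 38.3, 47.1 and 56.3 FPKM in the control libraries and 2.87, 4.62 and 4.91 FPKM in the knockout libraries.

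The homeobox factors and their cofactors were the most abundant members in the sorted libraries, which also held RNA of rods. In control, the order was Crx, Mef2d, Neurod1, Otx2, Thrb, Sall3, Pias3 and Rxrg, from 107 ± 24.6 FPKM for Crx to 3.88 ± 1.63 FPKM for Rxrg (mean ± SD, n = 3). Within the table, Crx ranged from the 98.5th to the 99.2nd percentile of genes over the 6 libraries and Thrb from the 89.2nd to the 93.3rd, whereas Rxrg ranged from the 35.6th to the 57.2nd percentile. The gaps between Otx2 and Thrb, 1.92-fold in knockout, and between Thrb and Sall3, 3.11-fold, were wider than the spread in both groups, with no overlap of ranges. Crx and Mef2d were not separated: Crx was the higher in 3 of 3 control and 1 of 3 knockout libraries, and the ranges overlapped. Sall3 and Pias3 were not separated either. The ranges of Mef2d and Neurod1 overlapped in knockout, and those of Neurod1 and Otx2 and of Pias3 and Rxrg in control, though within each library the first of each pair was the higher.

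**Figure D1:**
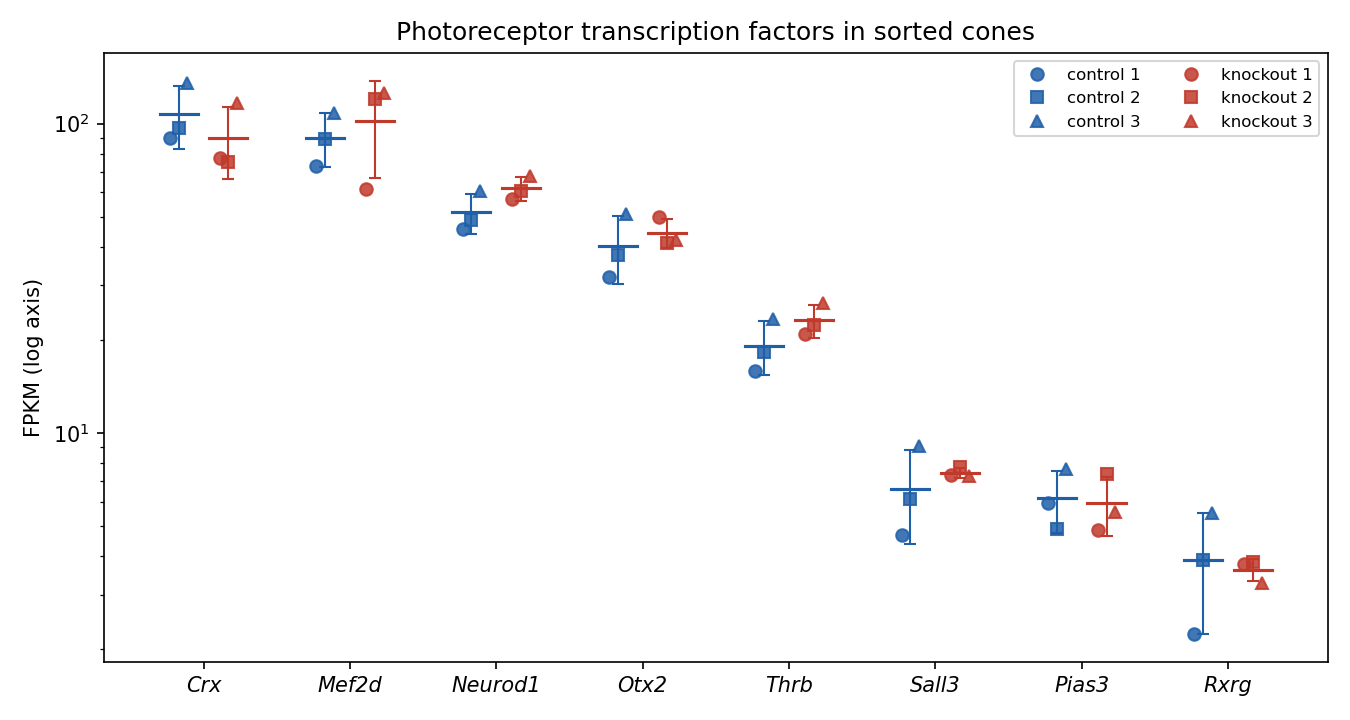
Level of each member in FPKM (log axis), by library. Points are libraries, bars the group mean and whiskers 1 SD (n = 3); members are ordered by the control mean. Control 3 is the highest control library for all 8 members, and the groups overlap for each of them.

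Deletion of Bmal1 in cones was followed by no called change in any of these factors. Of the 8 members tested, none passed an adjusted p of 0.05 in limma, against 0.104% of all 8627 genes tested, and none had an unadjusted p under 0.05, against 5.49%. Control and knockout ranges overlapped for every member, while they were apart for 9.39% of all tested genes. The log2 differences, knockout minus control on the scale of log2(FPKM + 1), ran from -0.26 for Crx to 0.27 for Thrb. Their median was 0.14, beside -0.02 over all tested genes, with 5 positive and 3 negative, beside 47.4% positive over all tested genes. For comparison, Nr1d1 had a log2 difference of -3.24 ± 0.25 (SE; adjusted p = 0.00013, limma). A difference that misses the threshold does not show equal levels, and the 95% intervals below give the sizes that remain possible.

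**Figure D2:**
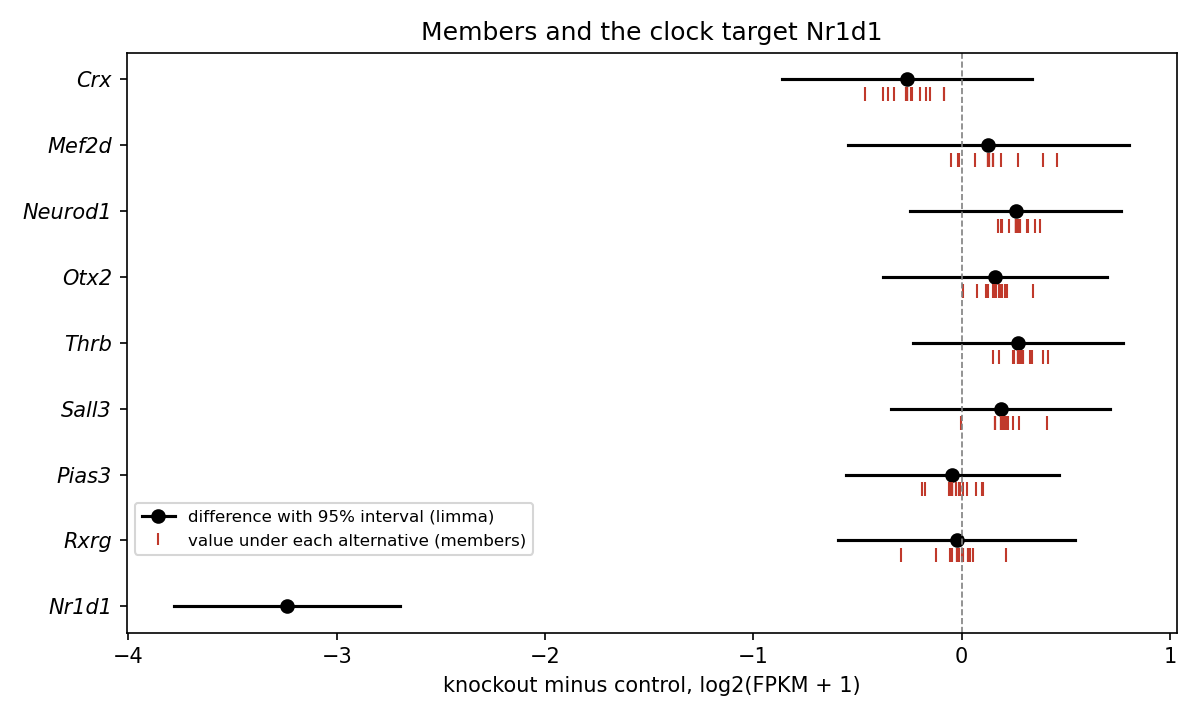
Log2 difference, knockout minus control, of each member and of the clock target Nr1d1. Points and bars are the limma estimate and its 95% interval, and red ticks are the members' values under each alternative processing. All member intervals include 0, and that of Nr1d1 ends at -2.70.

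Crx encodes the cone-rod homeobox protein, the central activator of photoreceptor genes. It gave 89.7, 96.9 and 135 FPKM in the control libraries and 77.5, 75.0 and 117 FPKM in the knockout libraries. The lowest values were those of knockouts 1 and 2, and knockout 3 lay within the control range. The estimated log2 difference of -0.26 had a 95% interval from -0.86 to 0.34 (adjusted p = 0.99, limma). It was negative in all 18 alternatives, from -0.46 without knockout 3 to -0.08 without control 3 and with the summed rod level as a covariate. On GRCm38 the gene spans bases 15865947 to 15879968 of chromosome 7, minus strand. Its opposite-strand neighbour Crxos starts at 15882617 and shares no exonic base with it. Crxos gave 17.4, 27.1 and 24.0 FPKM in the control libraries and 36.4, 34.8 and 32.0 FPKM in the knockout libraries. All 3 knockout values were above the control range, as for 3.52% of all tested genes. Crxos did not pass (log2 difference 0.59 ± 0.24 SE, adjusted p = 0.89, limma). It is no member and was named after its values were seen.

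Otx2 encodes the homeobox protein that acts upstream of Crx. It gave 31.9, 37.7 and 51.2 FPKM in the control libraries and 50.0, 41.2 and 42.0 FPKM in the knockout libraries. The knockout values lay inside the control range. Its log2 difference, 0.16, had a 95% interval from -0.38 to 0.70 (adjusted p = 0.9996, limma), and it was 0.01 without control 1 and 0.34 without control 3. It spans bases 48657677 to 48673819 of chromosome 14, minus strand. Of its exonic bases, 168 are also exonic in Gm49154 on the same strand and 154 in Otx2os1 on the opposite strand.

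Neurod1 encodes a basic helix-loop-helix factor that sustains photoreceptors and Thrb expression. It gave 45.7, 49.0 and 60.4 FPKM in the control libraries and 57.0, 60.5 and 67.7 FPKM in the knockout libraries. Only control 3 reached into the knockout range. The estimated log2 difference of 0.26 had a 95% interval from -0.25 to 0.77 (adjusted p = 0.98, limma). It stayed positive in all 18 alternatives, from 0.18 without control 1 to 0.37 without control 3. Neurod1 lies on chromosome 2 from 79452521 to 79456751, and 201 of its exonic bases are also exonic in Cerkl on the same strand. Cerkl itself measured 17.3 to 29.9 FPKM in control and 25.9 to 39.8 FPKM in knockout, and the sources used here do not state how fragments of the shared bases were assigned.

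Mef2d encodes a MADS-box factor that acts with CRX on photoreceptor enhancers. It gave 72.7, 89.0 and 109 FPKM in the control libraries and 61.3, 120 and 125 FPKM in the knockout libraries. It was the most variable member among the abundant ones in knockout, with a coefficient of variation of 34.7% against 19.9% in control, because knockout 1 was the lowest of all 6 libraries and knockouts 2 and 3 the highest. Its log2 difference, 0.13, had a 95% interval from -0.55 to 0.80 (adjusted p = 0.9996, limma), and its sign turned without control 1, knockout 2 or knockout 3. The gene lies on chromosome 3 from 88142372 to 88172086, and 531 of its exonic bases are also exonic in 1700113A16Rik on the opposite strand.

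The nuclear receptor genes of the opsin choice differed in level from each other, and neither passed between groups. Thrb encodes thyroid hormone receptor beta, which activates the medium-wavelength opsin and represses the short-wavelength opsin. It gave 15.9, 18.3 and 23.3 FPKM in the control libraries and 20.9, 22.3 and 26.3 FPKM in the knockout libraries, with control 3 inside the knockout range. The log2 difference of 0.27 had the smallest p of the members, with a 95% interval from -0.23 to 0.77 (adjusted p = 0.97, limma). It was 0.15 without control 1 and 0.41 without control 3. The value covers the whole gene, on chromosome 14 from 17660261 to 18038090, and does not separate transcripts of the 2 starts shown above. Rxrg, which encodes RXR gamma, gave 2.24, 3.90 and 5.51 FPKM in the control libraries and 3.77, 3.82 and 3.27 FPKM in the knockout libraries. The control values spread on both sides of the knockout values, with a coefficient of variation of 42.1% against 8.40%. The estimated log2 difference of -0.02 had a 95% interval from -0.59 to 0.54 (adjusted p = 0.9996, limma), and the sign turned in 8 of 17 alternatives. Rxrg lies on chromosome 1 from 167598384 to 167639623.

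Pias3 encodes a SUMO E3 ligase that modifies photoreceptor regulators. It gave 5.94, 4.89 and 7.66 FPKM in the control libraries and 4.87, 7.38 and 5.55 FPKM in the knockout libraries. The groups spanned nearly the same range. Its log2 difference, -0.05, had a 95% interval from -0.56 to 0.47 (adjusted p = 0.9996, limma), and its sign turned in 5 of 18 alternatives. The gene lies on chromosome 3 from 96696384 to 96706070. Sall3 encodes a zinc finger protein needed for short-wavelength opsin expression and horizontal cells. It gave 4.68, 6.12 and 9.05 FPKM in the control libraries and 7.32, 7.75 and 7.24 FPKM in the knockout libraries, so the knockout values lay close together inside the control range. The estimated log2 difference of 0.19 had a 95% interval from -0.34 to 0.71 (adjusted p = 0.9996, limma). It was -0.0044 without control 1 and 0.41 without control 3.

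The members were highest in the control library with the highest overall level. Control 3 was the highest control library for 8 of 8 members and for 58.4% of all tested genes, and control 1 the lowest for 7 of 8 and for 57.1%. The median FPKM of all genes was 3.38, 3.72 and 4.38 in controls 1, 2 and 3 and 3.53, 3.54 and 3.88 in knockouts 1, 2 and 3. Each value was therefore also divided by the median of its library, a scaling chosen after the data were seen. Control 3 was then still the highest for 7 members. Neurod1 became nearly constant in control, at 13.5, 13.2 and 13.8 times the library median, and stood at 16.1, 17.1 and 17.5 times in knockout. Thrb read 4.70, 4.93 and 5.33 times the median in control and 5.91, 6.29 and 6.79 times in knockout. On this scale Neurod1 and Thrb had all 3 knockout values above the control range, as had 7.75% of all tested genes, and the other 6 members overlapped. The exact permutation test, with both directions counted, gave p = 0.1 for each of the 2 genes, the smallest that 3 against 3 allows, and 0.4 adjusted over the 8 members, so neither can pass here. In limma on this scale the log2 differences were 0.32 for Neurod1 (adjusted p = 0.73) and 0.33 for Thrb (adjusted p = 0.72).

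**Figure D3:**
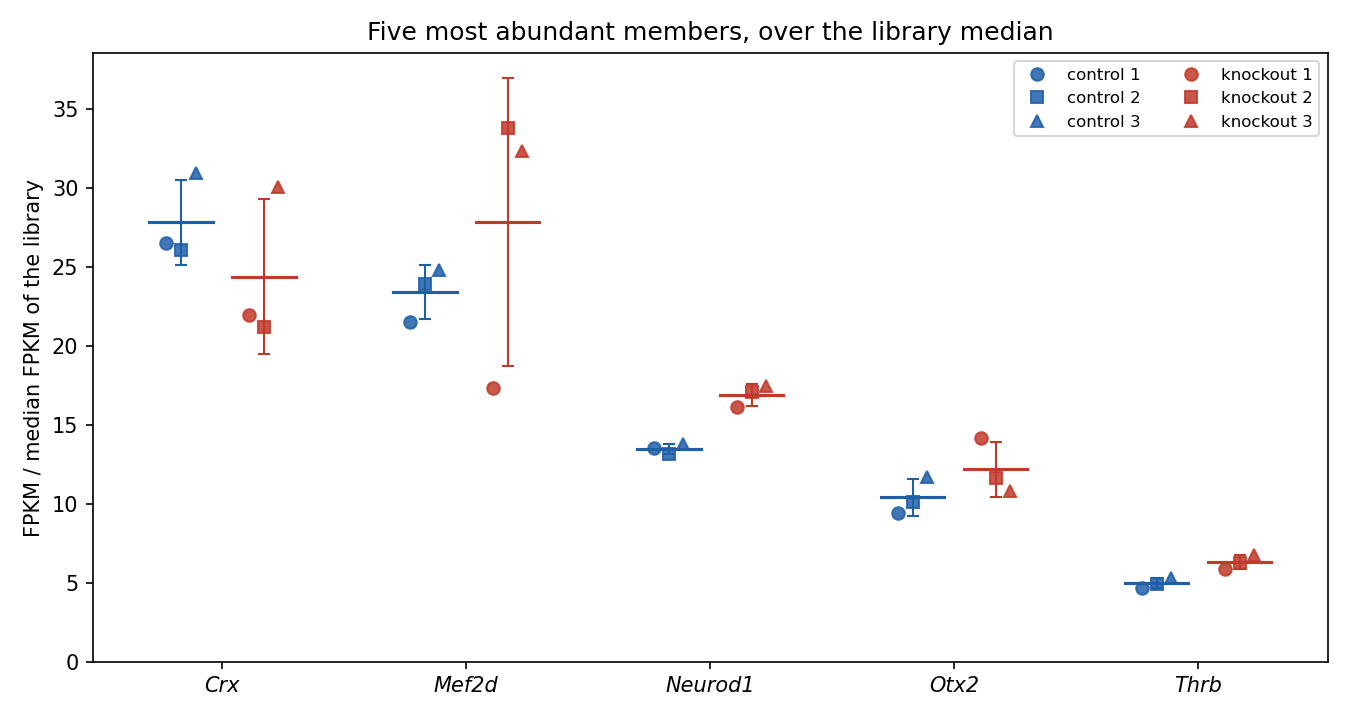
FPKM of the 5 most abundant members divided by the median FPKM of the same library, by library. Points are libraries, bars the group mean and whiskers 1 SD (n = 3). The 3 knockout values of Neurod1 and Thrb lie above the 3 control values, and those of Crx, Mef2d and Otx2 overlap with control.

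Shares and ratios of members within a library need no scaling between libraries. Crx made up 33.4%, 31.7% and 33.8% of the summed FPKM of the 8 members in control and 27.4%, 22.2% and 29.6% in knockout. All 3 knockout shares of Crx were below the control range, as were 9% of genes that are no member when set over the same sum. The share of Thrb was 5.91% ± 0.09 in control and 6.89% ± 0.44 in knockout, and that of Neurod1 16.0% ± 0.98 and 18.4% ± 1.55 (SD, n = 3). Both were higher in all 3 knockout libraries, as were 2.33% of other genes over that sum. The exact permutation p was 0.1 for each of these 3 shares, the smallest possible, and 0.27 adjusted over 8 shares. The remaining 5 shares overlapped between groups. The shares of a library add up to the whole, so those of Crx, Thrb and Neurod1 are not separate results. Genes that are no member are not part of the sum, so their percentages are not a like comparison.

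Set against Crx in the same library, each of the other 7 members had a higher mean ratio in knockout. These ratios, chosen after the data were seen, share their denominator, and Crx had the most negative log2 difference of the members. The 7 ratios are therefore not separate results, and the share of other genes with a higher mean ratio was not computed. The ratio of Neurod1 to Crx was 0.509, 0.505 and 0.446 in control and 0.735, 0.807 and 0.581 in knockout. That of Thrb to Crx was 0.177, 0.189 and 0.172 in control and 0.269, 0.297 and 0.226 in knockout. Both ratios had all 3 knockout values above the control range, as had 8.68% of other genes set over Crx. The exact permutation p was 0.1 for each, and 0.35 adjusted over 7 ratios. The ratio of Otx2 to Crx was even in control, at 0.355, 0.389 and 0.378, and uneven in knockout, at 0.645, 0.549 and 0.360, so the ranges overlapped through knockout 3. Mef2d to Crx ran from 0.801 to 0.918 in control and from 0.790 to 1.60 in knockout.

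**Figure D4:**
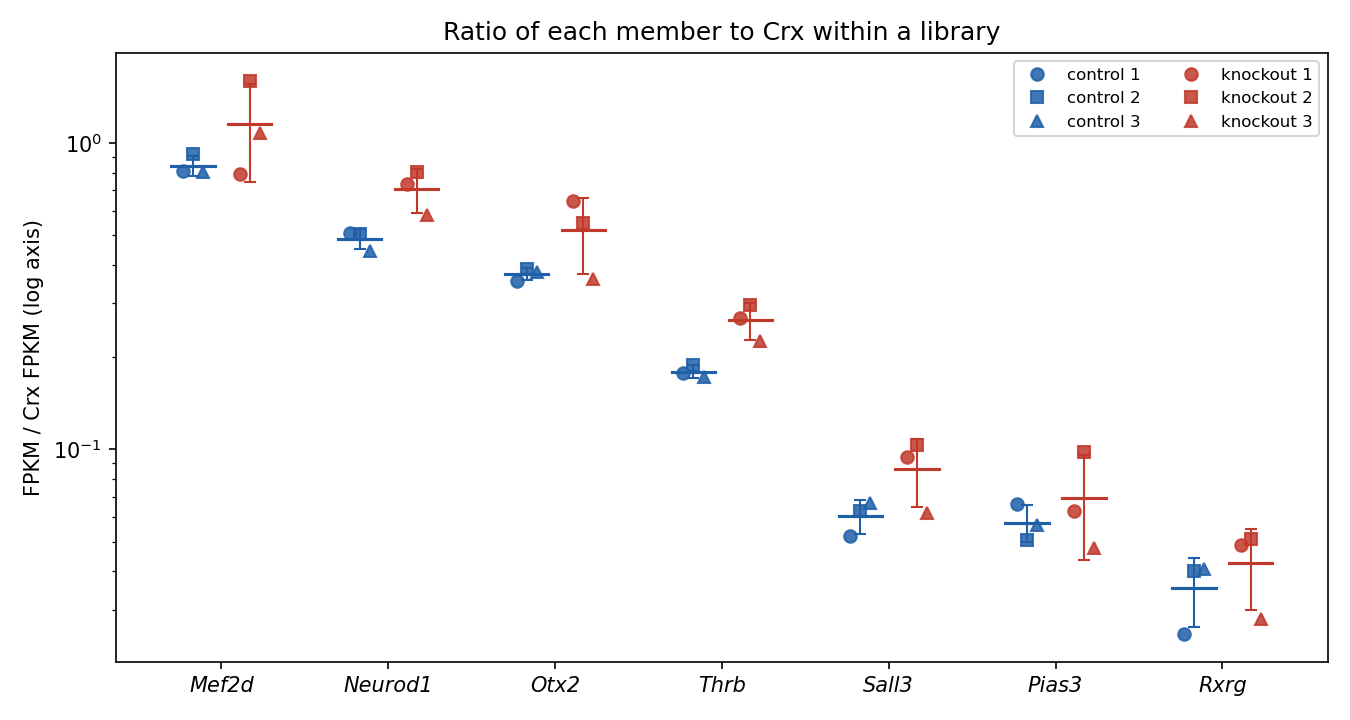
Ratio of the FPKM of each member to that of Crx in the same library (log axis). Points are libraries, bars the group mean and whiskers 1 SD (n = 3). The knockout values of Neurod1 and Thrb lie above the control values, and the other 5 ratios overlap.

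The genes whose profile over the 6 libraries was most like a member were found by the root mean square difference of centred log2(FPKM + 1), among 2107 genes averaging 10 FPKM or more. For Crx, the most abundant member, the closest 3 included Golga7 and Eif4h, at 0.05 and 0.07 log2 units. For Thrb, the member of smallest p, the closest 3 included D16Ertd472e and Socs7, at 0.06 and 0.08. All of these values share their library, and so the level of that library.

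Other regulators of rod and cone fate did not pass either. Of 29 listed, 17 were tested, 9 with a positive and 8 with a negative log2 difference and a median of 0.01, and none passed in limma. Casz1, a zinc finger gene and the most abundant by the mean over both groups, stood at 30.1 ± 6.21 FPKM in control and at 29.5 ± 6.84 FPKM in knockout. Rora, a nuclear receptor gene of cone opsin control, measured 23.8 ± 4.403 and 30.6 ± 1.31 FPKM with the ranges apart (adjusted p = 0.93, limma). In this list the ranges were apart upward for 2 of the 17, beside 3.52% of all tested genes, and downward for none, beside 5.87%. Nr2f2, an orphan nuclear receptor gene, measured 2.42 ± 0.27 and 1.56 ± 1.02 FPKM (adjusted p = 0.91, limma). Of the 17 paralogs of the members listed, 10 were tested, 4 positive and 6 negative with a median of -0.09, and none passed. Mef2c and Mef2a, relatives of Mef2d, measured 9.46 ± 3.97 and 8.79 ± 0.96 FPKM among controls against 9.74 ± 1.68 and 8.88 ± 0.07 FPKM among knockouts.

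Among partners of thyroid hormone and retinoid X receptors, 10 of 16 were tested, 4 positive and 6 negative with a median of -0.13, and none passed. The corepressor gene Ncor1 was the most abundant at 62.2 ± 5.92 FPKM in control and 74.6 ± 11.4 FPKM in knockout, followed by the coactivator gene Ncoa2 at 10.7 ± 2.17 and 12.7 ± 0.72 FPKM. Rara, the retinoic acid receptor alpha gene, measured 3.64 ± 0.85 and 2.09 ± 0.69 FPKM (a log2 difference of -0.60, with adjusted p = 0.90, limma). Thra, the thyroid hormone receptor alpha gene, measured 5.52 ± 0.80 and 3.70 ± 0.73 FPKM (a log2 difference of -0.48, with adjusted p = 0.90, limma). Both had all 3 knockout values below the control range, as had 5.87% of all tested genes. Thra shares 263 exonic bases with Nr1d1, which lies on the opposite strand and fell, and the part of those bases in the Thra values was not tested. Rxra, the retinoid X receptor alpha gene, measured 4.12 ± 1.66 and 2.44 ± 1.02 FPKM (adjusted p = 0.90, limma).

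Cofactors of CRX, PIAS3 and SAMD7 held no called gene. Of 11 CRX coactivators and chromatin partners, 10 were tested, 7 positive and 3 negative with a median of 0.07. The acetyltransferase genes Ep300 and Crebbp measured 23.7 ± 7.69 and 9.22 ± 1.40 FPKM among controls against 29.0 ± 3.28 and 8.80 ± 1.34 FPKM among knockouts. Usp22, a deubiquitinase gene, measured 6.68 ± 1.80 and 4.87 ± 1.43 FPKM, and Kat2b, an acetyltransferase gene, 7.97 ± 2.39 and 10.1 ± 0.49 FPKM. All 15 SUMO pathway genes were tested, 7 positive and 8 negative with a median of -0.06. Sumo2 measured 69.5 ± 17.8 and 57.2 ± 2.92 FPKM, and Senp6, a SUMO protease gene, 30.9 ± 11.5 and 40.9 ± 8.35 FPKM. Pias4, a paralog of Pias3, measured 2.34 ± 0.68 and 1.64 ± 0.59 FPKM.

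SAMD7 works with Polycomb proteins, and 19 of 22 genes of that list were tested, 10 positive and 9 negative with a median of 0.04 and none past the threshold. The ranges were apart upward for 2 and downward for 2 of the 19, beside 3.52% and 5.87% of all tested genes. Pcgf2, a Polycomb ring finger gene, had the smallest p, at 6.22 ± 0.97 FPKM in control and 3.30 ± 0.53 FPKM in knockout (a log2 difference of -0.74, with adjusted p = 0.57, limma). Phc3, a Polyhomeotic gene, measured 5.87 ± 0.44 and 8.07 ± 1.12 FPKM. Eed and Ezh2, subunits of the complex that methylates histone H3, measured 13.3 ± 3.86 and 12.7 ± 3.25 FPKM among controls against 12.7 ± 3.54 and 12.2 ± 1.12 FPKM among knockouts.

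**Figure D5:**
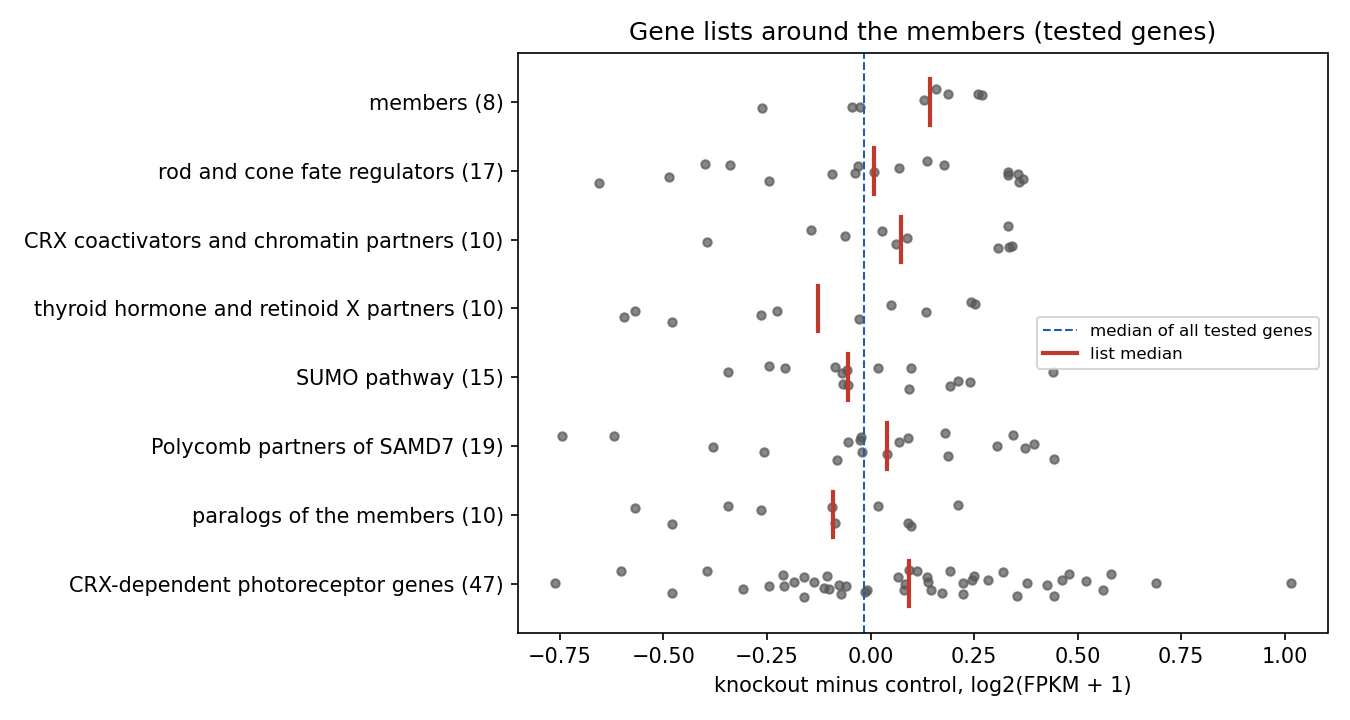
Log2 difference, knockout minus control, of each tested gene in the lists around the members. Points are genes, with the number tested in brackets, red bars list medians and the dashed line the median of all tested genes, -0.02. List medians lie between -0.13 and 0.14, and no gene shown passed the threshold.

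Genes known to depend on CRX differed widely in level, down to 3.16 ± 0.95 FPKM in control and 3.62 ± 0.47 FPKM in knockout for Gucy2f. All 47 listed were tested, 27 positive and 20 negative with a median of 0.09, and none passed in limma. The ranges were apart upward for 6 of 47, beside 3.52% of all tested genes, and downward for none, beside 5.87%. These 6 were Opn1sw, Slc24a2, Rp1, Impg1, Crb1 and Cnga1, named after their values were seen. Impg1, which encodes a matrix proteoglycan, measured 70.1 ± 6.67 and 102 ± 18.1 FPKM, and Crb1, a polarity gene, 22.9 ± 3.74 and 30.9 ± 1.63 FPKM (adjusted p = 0.90 and 0.91, limma). Cnga1, the rod channel gene, measured 14.9 ± 1.94 and 18.3 ± 1.33 FPKM. Fscn2, an actin-bundling gene, measured 4.10 ± 0.73 and 7.45 ± 2.60 FPKM (adjusted p = 0.84, limma). Gngt2, a cone transducin gene, was the most abundant of the list in control and came after Opn1sw by the mean over both groups. It measured 1211 ± 489 and 1002 ± 162 FPKM.

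The opsins, on which THRB, RXRG, PIAS3 and SALL3 act, had means that differed in opposite directions, and neither passed. The short-wavelength opsin gene Opn1sw gave 735, 1005 and 1202 FPKM in the control libraries and 1774, 1977 and 2091 FPKM in the knockout libraries (a log2 difference of 1.01, adjusted p = 0.65, limma). The medium-wavelength opsin gene Opn1mw gave 661, 1471 and 1144 FPKM in the control libraries and 697, 815 and 722 FPKM in the knockout libraries (a log2 difference of -0.48, adjusted p = 0.94, limma). The ratio of the first to the second was 1.11, 0.683 and 1.05 in control and 2.54, 2.43 and 2.90 in knockout, with the groups apart. This ratio was not tested, and no share of other gene pairs was computed to set beside it. Of the 4 factors, Thrb and Sall3 had positive and Rxrg and Pias3 negative log2 differences, none past the threshold, and the sign turned for Rxrg with each of the 4 rescalings tried, for Pias3 with division by the library median, and for Sall3 without control 1. Exons of Opn1sw share 397 bases with those of Calu on the opposite strand, and no source used here states whether counting used strand.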

How the data were processed

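Poly(A) RNA of 6 libraries of sorted cones was sequenced with a directional kit from 100 ng of RNA each, in paired reads of 150 bases, per the labels' protocols. The authors deposited values in FPKM, a column for each library. In the submitters' processing notes stand mm10, DESeq2, HTSeq, Cufflinks 2.2.1 and TopHat2 2.1.0, with no roles. Each of the 9720 genes exceeds 1 FPKM in at least 1 library and 0.1 FPKM is the lowest value, so a filter before deposit can hide low genes. Low values showed no common step, so no reads were recovered, the depth is unknown and no counting interval is given.

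Groups come from the genotype labels. Genes averaging 1 FPKM or more (8627) were kept, values were put on the scale of log2(FPKM + 1), and knockout was compared with control by limma 3.58.1 in R 4.3.3 with a variance trend and Benjamini-Hochberg adjustment over all tested genes. Shares of the members, their ratios to Crx and their levels over the library median were compared by exact permutation tests. The fit was tested on simulated data. Positions are from GENCODE vM21 (GRCm38, the assembly of mm10; 9702 IDs matched), and 15 symbols stored as spreadsheet dates were restored by ID. Figures used Python 3.11.15 and matplotlib 3.10.9.

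Members and lists were chosen with earlier results of these data known. Named genes are all members, Arntl, Nr1d1, the opsins, and from each list the 2 most abundant, the 2 of smallest p and any past the threshold. Alternatives changed the pseudocount, filter, scaling, variance model, array weights, a rod covariate, the replicate block and each library left out. The values of some genes that the rule names are not reported here. No tested marker of any cell type list passed the threshold.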

Additional observations from a re-analysis of the deposited data

How the results depend on the processing

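No member passed the threshold in any of 18 alternatives, and the counts of called genes in the 7 lists around them stayed at 0. Over all genes, 9 were called, 4 higher and 5 lower. Array weights gave 23, 11 higher and 12 lower. With the replicate number as a block, 1 was higher and 5 lower. Leaving out 1 library gave 6 to 13 called, 1 to 5 higher and 5 to 8 lower, the highest without control 1. The cause was not tested. Whether the replicate numbers pair the libraries cannot be told from these values. Deviations of same-numbered libraries correlated across genes at -0.118, -0.0853 and -0.0336, and those of other pairs at -0.0397 to 0.0966. They were centred within groups of 3, which ties these correlations to each other. The block changed no call among the members, of which none was called in the main fit. Crx, Otx2, Neurod1 and Thrb kept their sign throughout, and leaving out single libraries moved Crx between -0.46 and -0.08. Those of the others turned. Leaving out 1 library gave -0.052 to 0.46 for Mef2d, below 0 without control 1 (-0.015), knockout 2 (-0.020) and knockout 3, and -0.0044 to 0.41 for Sall3, below 0 without control 1. For Rxrg it gave -0.29 to 0.21, above 0 without control 2 (0.0069), control 3 and knockout 3 (0.031), and for Pias3 -0.19 to 0.10, above 0 without control 3 and knockout 1 (0.067). Rxrg also turned to 0.0056 with equal sums, 0.00068 with median-ratio scaling, 0.040 with quantile normalization, 0.032 with median scaling and 0.054 with the rod covariate. Pias3 turned to 0.097 with array weights, 0.025 with the rod covariate and 0.0082 with median scaling. Rxrg has no value under the filter of 5 FPKM. With 3 libraries a group, the intervals of the members reach 0.80 log2 units or more in size for Crx and Mef2d.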
